A study of Mus musculus with 6 samples.

Results

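The cytosolic ribosomal protein genes encode the protein components of the ribosome that translates nuclear-encoded mRNA. They were taken from the gene table as protein-coding mouse symbols beginning with Rpl or Rps and a number, with Rplp0, Rplp1, Rplp2 and Rpsa added and with kinases of the Rps6k family, Rps19bp1 and pseudogenes left out. The rule found 83 of the 20756 genes in the table, 50 of the large subunit and 33 of the small subunit. It read no measured value. Besides the canonical genes, the 83 include 6 paralogs or like-named genes, namely Rpl3l, Rpl7l1, Rpl22l1, Rpl36al, Rps27l and Rps27rt. Rpl10l and Rpl39l were not analysed here.

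The study profiled mouse material labelled MTO, which no label or note spells out, by sequencing tags from the 3′ ends of polyadenylated transcripts. There were 6 samples of strain C57BL/6, all untreated: 3 carried a control guide (genotype sgC) and 3 carried guides against Prkci and Prkcz, the atypical protein kinase C genes (genotype sgPrkci/Prkcz). Per the labels, the cells grew in advanced DMEM/F12 with HEPES, Glutamax, B-27 and EGF, and each library used 200 ng of total RNA. The growth text also describes subcutaneous injection into mice and the design text mentions tumors and more replicates than are listed, whereas the table is marked as in vitro. The labels do not give a Cre or promoter, the age of any animal, or whether a genotype is 1 clone or a pool, and they do not say that replicates are separate cultures.

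A ribosome holds a single copy of each core protein, apart from the stalk proteins, so the subunits are assembled from closely matched supplies of many gene products. The mRNAs of these genes begin with a short run of pyrimidines, the terminal oligopyrimidine or TOP element, which places their translation under the control of the kinase complex mTORC1 and the RNA-binding protein LARP1. In intestinal epithelium and its tumors, ribosome production follows growth signals such as those acting through Myc. Transcript levels, the quantity measured here, do not report that translational control.

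Total gene-assigned reads were 2821908 to 3048170 per sgC library and 1543826 to 1808292 per sgPrkci/Prkcz library, so depth differed by genotype. Each value below is a CPM (reads per 1000000 gene-assigned reads) of 3′ tags, not divided by transcript length. The rRNA-like genes mt-Rnr1, mt-Rnr2 and Gm42418 together took 21.7% ± 0.37 of sgC reads and 23.7% ± 1.30 of sgPrkci/Prkcz reads (SD, n = 3). Of the targeted genes, Prkci had 54.9 ± 8.60 CPM in sgC and 54.4 ± 0.69 in sgPrkci/Prkcz with overlapping values, and Prkcz had 5.64 ± 0.71 and 2.09 ± 1.71 with no overlap (SD, n = 3). A tag from the 3′ end does not read the site a guide cuts. The Y-linked gene Ddx3y had 0 reads in every sgC library and at least 27.2 CPM in every sgPrkci/Prkcz library, and Eif2s3y, Kdm5d and Uty were likewise called as rises, with 1 read of Eif2s3y in all sgC libraries together. The genotypes thus differed in Y-linked transcripts, and genotype and the line or animal of origin cannot be told apart. Summed CPM of 8 epithelial markers lay between 3480 and 4229, of immune markers between 5.25 and 14.3, and of fibroblast markers at or under 2.35. Endothelial markers reached at most 0.67 CPM in sum, with Pecam1 and Cdh5 at 0, and striated muscle markers at most 5.67. In bulk material, fewer cells of a type and less RNA per cell cannot be told apart.

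Most ribosomal protein transcripts differed little between the genotypes, and those that passed the test moved in both directions. Log2 fold changes, computed on log2(CPM + 1) with sgC subtracted from sgPrkci/Prkcz, ran, among the genes named here, from -0.70 for Rpl8 to 0.57 for Rpl37a. No member reached an absolute value of 1, which 10.1% of all tested genes reached with a call. With limma and a Benjamini-Hochberg adjusted p under 0.05 over all genes, 8 of the 81 tested members rose and 22 fell. Over all 12207 tested genes 35.2% were called, 11.4% as rises and 23.8% as falls, and the members' 37.0% is near that background. The count itself is therefore no result about these genes. Rpl24, which stayed at or under 1.06 CPM, and Rpl3l, which was at 0 in all libraries but sgC replicate 3, did not pass the filter on low values.

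The zero point of the scale decides how these calls divide. All tested genes together had a median log2 fold change of -0.17 and the members one of -0.06, so 54 of the 81 lay above the median gene. On the CPM scale the calls were 8 rises and 22 falls, but 23 rises and 7 falls were found once the median change over all genes was set to 0. That setting called 17.4% of all tested genes as rises and 14.4% as falls. Among tested genes with a mean of at least 100 CPM, a level that most members exceed, the median was -0.03 and 53.7% were called. In 75 of the 81 members the log2 fold change lay within 0.5 of 0, against 64.8% of all tested genes. The members' quartiles were -0.23 and 0.12, beside -0.28 and 0.23 for the genes with at least 100 CPM. Over all tested genes the quartiles were -0.51 and 0.15. Without limma's mean-variance trend 7 members were called, 3 as rises and 4 as falls.

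**Figure D1:**
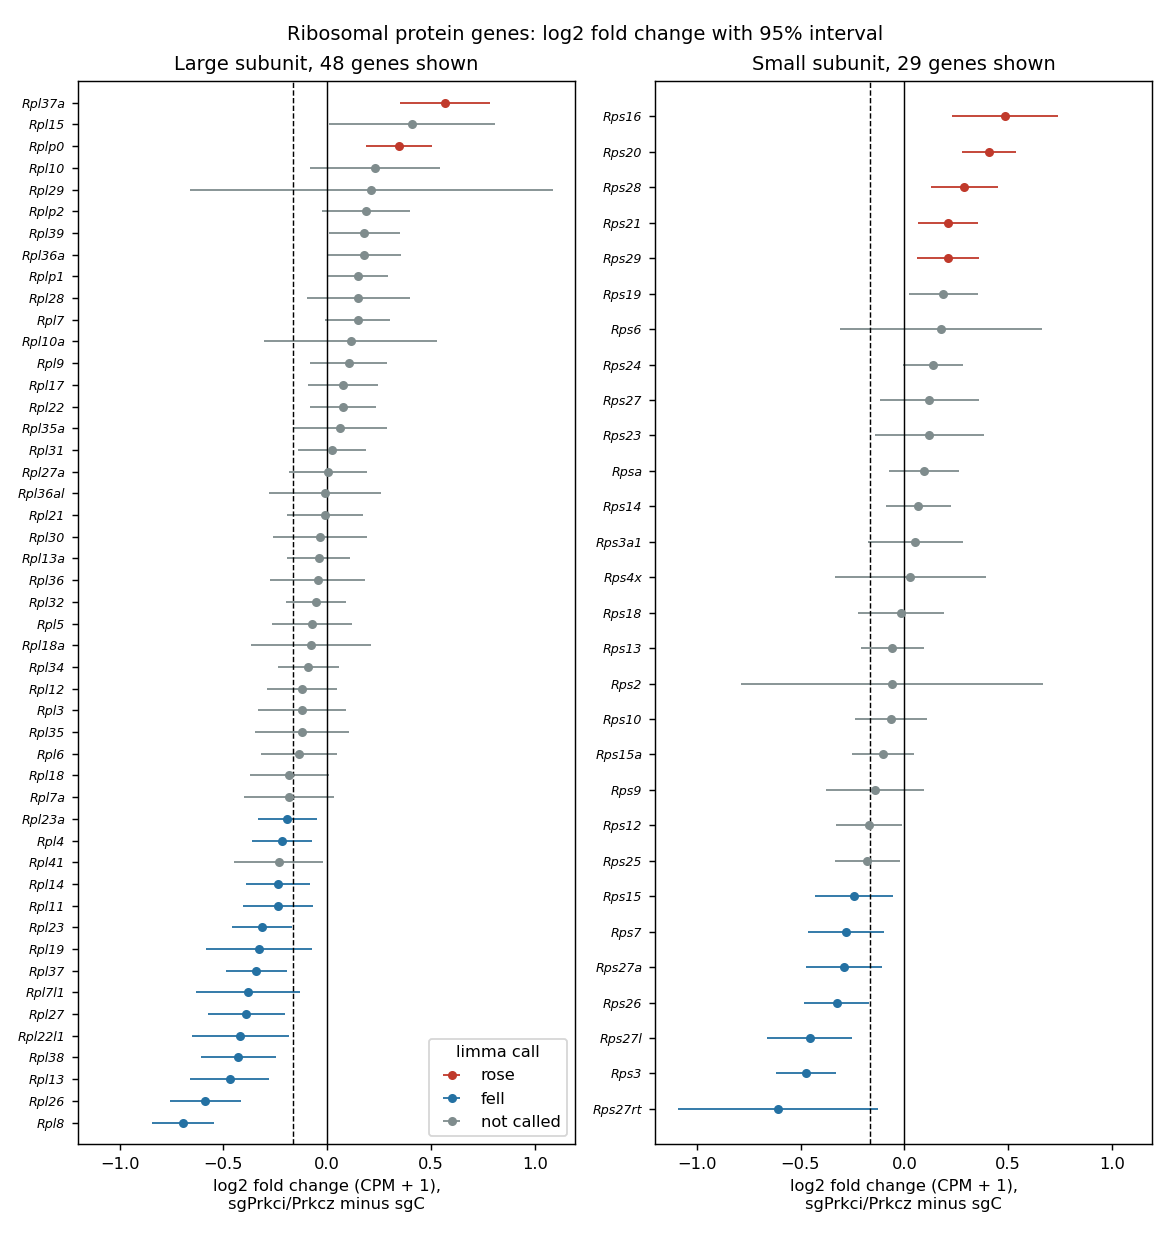
Log2 fold change of the ribosomal protein genes reported here (x axis, log2(CPM + 1) scale, sgC subtracted from sgPrkci/Prkcz), with its 95% interval from limma (n = 3 per genotype), in 48 large and 29 small subunit genes. The solid line is 0, the dashed line is the median of all tested genes at -0.17, and Rpl8 at -0.70 and Rpl37a at 0.57 lie at the ends of the large subunit panel.

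Summed over genes, the large subunit took a smaller share of reads in sgPrkci/Prkcz and the small subunit about the same share. Large subunit genes held 2.11%, 2.03% and 2.02% of reads in sgC replicates 1 to 3 and 1.83%, 1.88% and 1.89% in sgPrkci/Prkcz. Small subunit genes held 1.82%, 1.76% and 1.73% of sgC reads and 1.75%, 1.73% and 1.79% of sgPrkci/Prkcz reads. The large subunit shares did not overlap between genotypes, and the small subunit shares did.

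The ratio of large to small subunit reads within a library does not depend on how libraries are scaled to each other. The 3 sgC libraries gave 1.16, 1.15 and 1.16 and the 3 sgPrkci/Prkcz libraries 1.05, 1.09 and 1.06, or 1.16 ± 0.0063 against 1.06 ± 0.020 (SD, n = 3). Every sgPrkci/Prkcz library lay under every sgC library. With Rpl8, Rpl26 and Rps20 left out, it was 1.16 to 1.17 in sgC and 1.11 to 1.16 in sgPrkci/Prkcz, and the genotypes overlapped. These genes were picked for their changes after the data were seen, so leaving them out narrows the difference by construction. Without the members of chromosome 11, also chosen after the data were seen, it was 0.993 to 0.994 against 0.917 to 0.952.

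**Figure D2:**
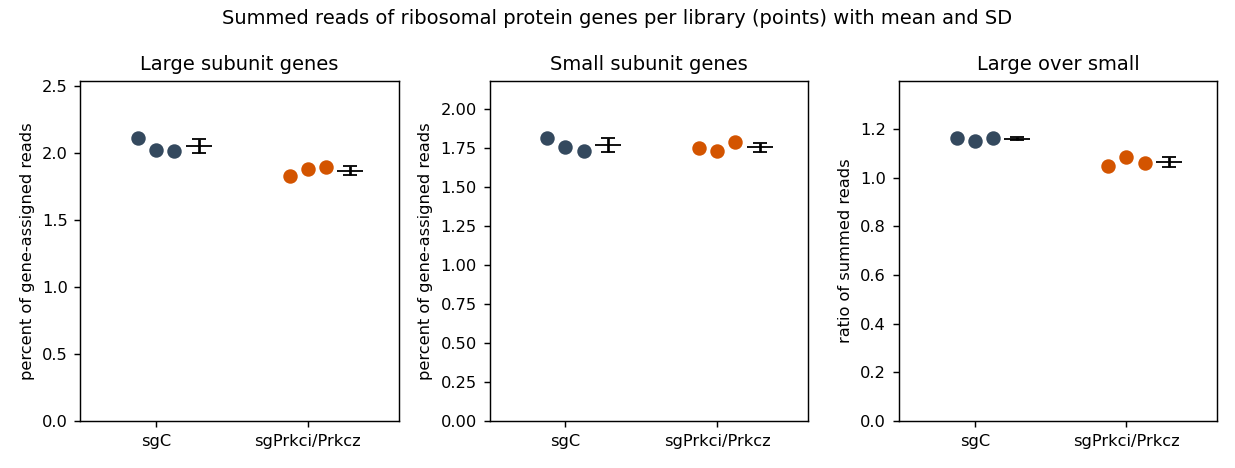
Share of gene-assigned reads (y axis, percent) held by large and by small subunit genes, and the ratio of the summed reads, in each of the 6 libraries (points) with the mean and SD per genotype (n = 3). The large subunit share and the ratio are lower in every sgPrkci/Prkcz library, and the small subunit shares overlap.

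Gene by gene the subunits differed less than their sums. Of 48 tested large subunit genes 2 rose and 14 fell, with a median log2 fold change of -0.07. Of 33 small subunit genes 6 rose and 8 fell, with a median of -0.05. With the median change over all genes set to 0 the counts were 13 rises and 4 falls in the large subunit and 10 rises and 3 falls in the small subunit, and both medians changed sign, to 0.10 and 0.11. In 12 tested members every sgPrkci/Prkcz value was above every sgC value and in 24 it was below, beside 15.0% and 30.0% of all tested genes.

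All 30 called members had the same sign with the median change set to 0. In the large subunit the largest fall was that of Rpl8, whose protein sits close to the peptidyl transferase centre. Rpl8 (ENSMUSG00000003970; GRCm38 chromosome 15, 76904078 to 76906314, plus strand) had 1010.1, 938 and 872 CPM in sgC and 583, 587 and 567 in sgPrkci/Prkcz. The genotypes were far from overlapping, and the sgPrkci/Prkcz libraries were nearly equal. Its log2 fold change was -0.70 (SE 0.07; limma, Benjamini-Hochberg adjusted p = 1.2e-08), and it remained -0.53 with the median change set to 0. Rpl3 and Rpl10, the other listed genes of the catalytic region and of its late assembly, gave -0.12 and 0.23 and did not pass.

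Rpl26, whose protein borders the exit of the nascent chain tunnel, also fell. Rpl26 (ENSMUSG00000060938; chromosome 11, 68901583 to 68906989, plus strand) went from 1023, 865 and 779 CPM in sgC to 591, 552 and 623 in sgPrkci/Prkcz. The values did not overlap, and sgC itself spanned a wide range. The log2 fold change was -0.59 (SE 0.08; limma adjusted p = 2.8e-06). Of the 8 listed genes of the tunnel and its rim 4 fell and 0 rose. With the median change set to 0 the list had 1 fall and 2 rises, and with chromosome medians removed 0 falls and 3 rises. The call of Rpl26 was lost with chromosome medians removed, at -0.14 (limma adjusted p = 0.21).

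Rpl13 and Rpl38 fell as well. Rpl13 had 1571, 1478 and 1163 CPM in sgC and 1049.9, 914 and 1058 in sgPrkci/Prkcz, with a log2 fold change of -0.47 (SE 0.09; limma adjusted p = 0.0004). Rpl38, which in mouse is needed for the translation of a subset of Hox mRNAs, had 285, 282 and 309 CPM against 198, 222 and 232. The fall of Rpl38 was -0.43 (SE 0.09; limma adjusted p = 0.00036), but its sign changed to 0.02 with chromosome medians removed. Neither gene overlapped between genotypes.

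The largest rise in the large subunit was in Rpl37a, a zinc-binding protein of the large subunit. Rpl37a (ENSMUSG00000046330; chromosome 1, 72711290 to 72713813, plus strand) had 149, 147 and 168 CPM in sgC and 221, 278 and 196 in sgPrkci/Prkcz. All sgPrkci/Prkcz values were higher, with a wider spread than in sgC. The log2 fold change was 0.57 (SE 0.11; limma adjusted p = 0.00013).

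The stalk that recruits elongation factors is built from Rplp0 at its base and from the acidic proteins Rplp1 and Rplp2, with Rpl12 beside them. Rplp0 rose from 716, 701 and 777 CPM in sgC to 950, 1025 and 825 in sgPrkci/Prkcz, with no overlap and a log2 fold change of 0.35 (SE 0.08; limma adjusted p = 0.00087). Rplp1 and Rplp2 had log2 fold changes of 0.15 and 0.19, with overlapping genotypes and limma adjusted p-values of 0.10 and 0.17. Rpl12 gave -0.12 (limma adjusted p = 0.28). Of the 4 stalk genes 1 rose, and 3 did with the median change set to 0. The stalk genes thus did not share 1 direction of estimate on the CPM scale, although Rpl12 was 0.05 with the median change set to 0.

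Rpl5 and Rpl11 carry the 5S rRNA into the large subunit and, when free, bind the p53 inhibitor Mdm2. Rpl11 had 449, 408 and 375 CPM in sgC and 341, 342 and 360.1 in the sgPrkci/Prkcz libraries. It fell by 0.24 on the log2 scale (SE 0.08; limma adjusted p = 0.026), a call that ended with the median change set to 0, at -0.07. Rpl5 went from 165 ± 8.98 to 156 ± 8.88 CPM (SD, n = 3) and did not pass.

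Rpl4, Rpl14 and Rplp1 had the highest mean CPM of the large subunit genes. Rpl4, a protein of the tunnel wall, fell by 0.22 and Rpl14 fell by 0.24 on the log2 scale, with limma adjusted p-values of 0.016 in both. Both genes overlapped between genotypes, and both calls ended with the median change set to 0. Rpl27a and Rpl36al were the tested large subunit genes with the smallest differences, 0.004 and -0.010. The 95% interval for Rpl27a ran from -0.19 to 0.19.

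Rps20 and Rps16 belong to the head of the small subunit, where Rps16 reaches towards the tRNA in the P site. Rps20 (ENSMUSG00000028234; chromosome 4, 3831334 to 3835665, minus strand) had 1716, 1617 and 1572 CPM in sgC and 2097, 2116 and 2290.4 in sgPrkci/Prkcz. Every sgPrkci/Prkcz library was higher, by a log2 fold change of 0.41 (SE 0.06; limma adjusted p = 1.1e-05). Rps16 rose from 76.3 ± 12.9 to 106.7 ± 13.0 CPM (SD, n = 3), a log2 fold change of 0.48 (SE 0.13; limma adjusted p = 0.0033). Of the 8 listed genes of the head and beak 2 rose and 2 fell, the falls being Rps15 and Rps27a, whose signs turned with chromosome medians removed. With the median change set to 0 the list had 3 rises and 0 falls.

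Rps3 lines the channel through which mRNA enters the decoding site, and it fell. Rps3 (ENSMUSG00000030744; chromosome 7, 99477896 to 99483738, minus strand) had 897, 827 and 850.5 CPM in sgC and 627, 622 and 605 in sgPrkci/Prkcz. The genotypes were well apart and the replicates close. The log2 fold change was -0.47 (SE 0.07; limma adjusted p = 5.3e-06). None of Rps2, Rps9 and Rps23, the other listed genes of the decoding centre, passed.

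Among the genes of the platform and mRNA exit Rps28 rose (0.29; limma adjusted p = 0.0047) and Rps26 fell (-0.33; limma adjusted p = 0.0015), while Rps14 and Rpsa did not pass. The call of Rps26 ended with the median change set to 0, at -0.16 (limma adjusted p = 0.12), and with chromosome medians removed, at -0.073 (limma adjusted p = 0.53). The list then had 3 rises and 0 falls in the first setting and 2 and 0 in the second. The laminin receptor gene Rpsa stood at 449.8 ± 49.5 and 479 ± 14.4 CPM (SD, n = 3).

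Rps20 and Rps21 were among the small subunit genes with the highest mean CPM. Rps21 rose from 929, 985 and 1024 CPM to 1143, 1206 and 1055, a log2 fold change of 0.21 (SE 0.07; limma adjusted p = 0.020), without overlap. Rps6, the substrate of S6 kinase, was listed at only 8.72 to 16.8 CPM and did not pass. Rps18 and Rps4x had the smallest differences, -0.02 and 0.03, with 95% intervals from -0.22 to 0.19 and from -0.34 to 0.39.

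**Figure D3:**
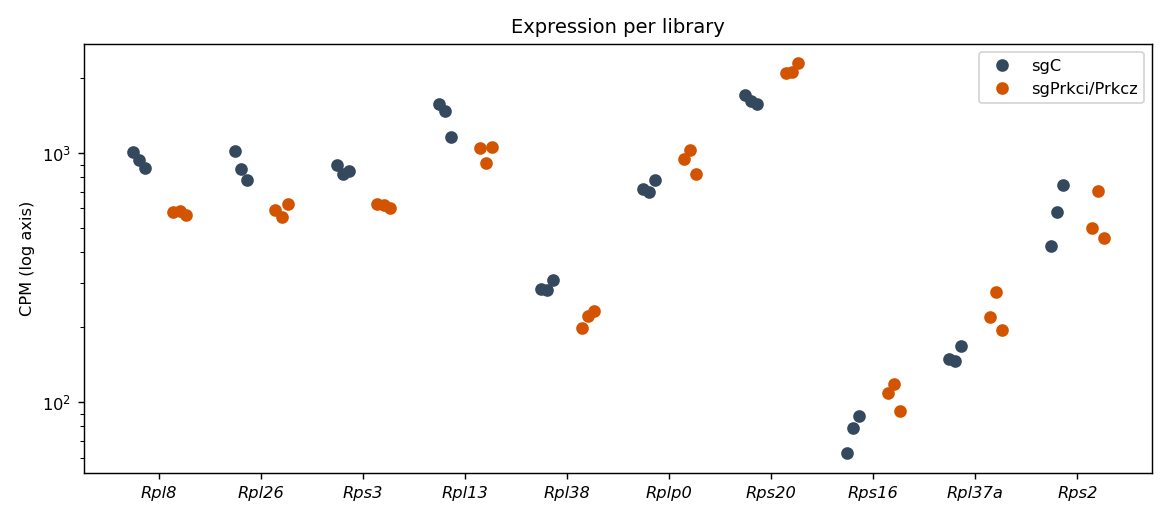
CPM on a log axis in each of the 6 libraries for 10 ribosomal protein genes, with sgC and sgPrkci/Prkcz in separate colours. Rpl8 at 872 to 1010.1 in sgC and 567 to 587 in sgPrkci/Prkcz is well separated, and Rps2, at 425 to 745 and 458 to 706, overlaps widely.

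Replicate spread differed between members. Rps2 had 425, 580 and 745 CPM in sgC and 501, 706 and 458 in sgPrkci/Prkcz, so its 95% interval for the log2 fold change ran from -0.79 to 0.67. Over tested members the SE ranged from 0.06 to 0.43, with a median of 0.09. The highest SE was that of Rpl29, which stayed under 2.6 CPM.

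The paralogs form a small group in which 4 of 5 tested genes fell, beside 23.8% of all tested genes. Rpl22l1, the like-named partner of Rpl22, fell from 87.5, 93.5 and 107 CPM to 72.1, 67.5 and 74.5, a log2 fold change of -0.42 (SE 0.11; limma adjusted p = 0.0050). Rps27l, a p53 target in human cells, fell from 249, 302 and 315 to 226, 225 and 181 (-0.46; SE 0.10; limma adjusted p = 0.00072). Neither overlapped between genotypes. Their canonical partners Rpl22 and Rps27 had log2 fold changes of 0.07 and 0.12 and did not pass.

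Rpl7l1 and Rps27rt also fell, by 0.38 and 0.61 on the log2 scale, with limma adjusted p-values of 0.015 and 0.044. Rps27rt shares 100% of its 3′-end sequence with other genes. Rpl36al did not pass. With the median change set to 0 Rps27l alone of the 5 remained a fall, at -0.29 (limma adjusted p = 0.026). The same held with chromosome medians removed, where Rps27l stood at -0.34 (limma adjusted p = 0.010).

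Where a member lies in the genome went along with its direction in part. All 7 members on chromosome 11 fell, namely Rpl19, Rpl23, Rpl23a, Rpl26, Rpl27, Rpl38 and Rps27a, with log2 fold changes from -0.59 to -0.19. The other 959 tested genes of chromosome 11 had a median of -0.44, and 45.4% of them fell, beside 23.8% of all tested genes. With only the median change over all genes set to 0, Rpl26 and Rpl38 were still called as falls (limma adjusted p = 0.00024 and 0.022). Rpl19, Rpl23, Rpl23a, Rpl27 and Rps27a already lost their calls in that setting. Removing the chromosome medians of the non-members was a setting added after the data were seen. There none of the 7 was still called as a fall and Rpl23a was called as a rise, at 0.25 (limma adjusted p = 0.0054).

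Chromosome 15 holds Rpl8 and Rpl37, which fell, although Rpl37 turned to 0.050 with the chromosome median removed, and Rpl3 and Rpl30, which did not pass. In that setting Rpl3 and Rpl30 were called as rises, at 0.27 and 0.36 (limma adjusted p = 0.047 and 0.014). The other genes of chromosome 15 had a median of -0.39 and 40.1% of them fell, and those of chromosome 8, where Rpl13 lies, had a median of -0.40 and 37.6% fell. On chromosome 1, the position of Rpl37a, the median was 0.09. Other chromosomes went together less: on chromosome 9, 4 of 8 members fell, while its other genes had a median of -0.11 and 20.3% fell. Members on the X had a median of 0.18, beside -0.08 for its other genes. Rpl8 fell beyond its chromosome, at -0.30 with the median removed (limma adjusted p = 0.0017), and Rpl13 did not, at -0.07 (limma adjusted p = 0.60).

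Across the 81 tested members, the log2 fold change and the median of the other genes on the same chromosome had Pearson's r of 0.49 and Spearman's rho of 0.45. Without chromosome 11 these were 0.37 and 0.32 over 74 members. This correlation is across genes, which share libraries and chromosomes and are not independent replicates. With chromosome medians removed the members' calls were 22 rises and 4 falls, beside 16.3% and 12.9% of all tested genes, with Rpl8, Rps3 and Rps27l among the falls. DNA copy number was not measured here, and its part in the result was not tested.

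**Figure D4:**
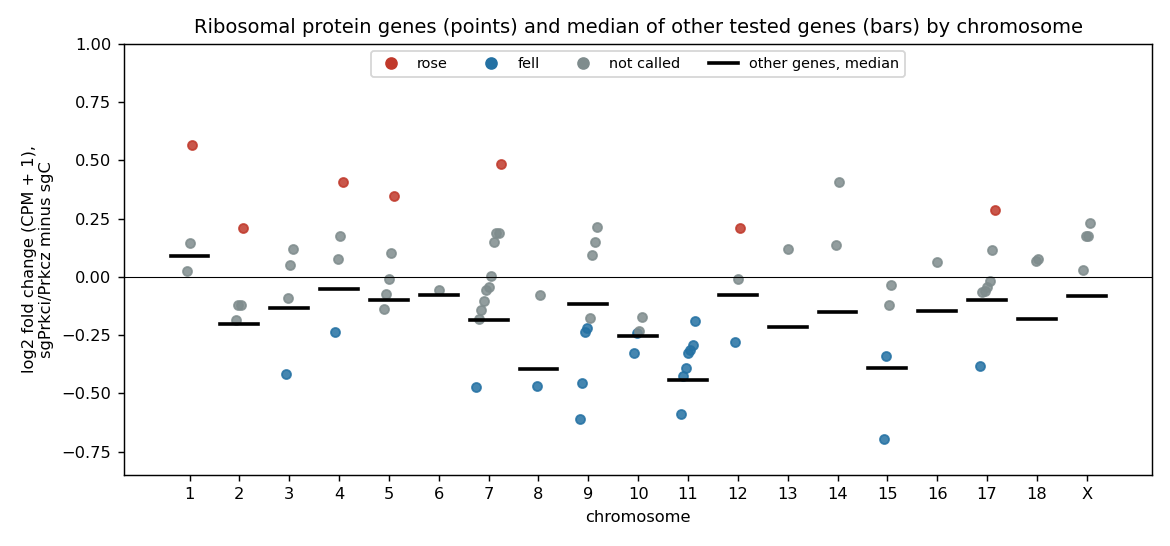
Log2 fold change (y axis, log2(CPM + 1) scale) of the ribosomal protein genes reported here, grouped by chromosome (x axis), with a bar at the median of the other tested genes of that chromosome. On chromosome 11 all 7 members fell and the bar lies at -0.44, while on chromosome 1 it lies at 0.09.

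Of the 30 called members, 5 were called in the same direction under all 21 alternative settings. They included Rpl37a and Rps20 as rises and Rpl8 and Rps3 as falls. The sign was the same in all alternatives for 22 of the 30, and the other 8 changed sign with chromosome medians removed alone.

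Ribosomal protein genes have many processed pseudogenes, so the last bases of their transcripts are often found elsewhere. In 64 of the 83 members at least 1 stretch of 75 bases, the read length, within the last 300 bases of an annotated transcript occurred exactly in another gene. In 39 members at least 50% of the stretches did. Of the 9 members under 50 CPM 6 were in that group, and so were 33 of the 74 members at 50 CPM or more. Low values, such as those of Rps6 and Rpl24, cannot be told apart from reads lost to copies. Rpl8, Rps3 and Rps20 had 16.8%, 0% and 0% of stretches shared, but annotated ends can be longer than those used in these cells.

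The table had 195 genes named as copies of ribosomal protein genes, by a -ps suffix or as Rpl37rt. They held 1.09% ± 0.13 as many reads as the members in sgC and 0.92% ± 0.085 in sgPrkci/Prkcz (SD, n = 3). Pseudogenes under other names were not counted. Adding the reads of the -ps genes to the parent genes of the same name left 30 members called, all 30 of them the same genes. With so few reads added the calls could hardly change, and any reads lost before counting were not restored. Among the 18 tested members with no shared stretch, 4 rose and 8 fell. For the 19 members with none, the ratio of large to small subunit reads was 1.47 to 1.51 in sgC and 1.27 to 1.37 in sgPrkci/Prkcz. The transcript used for each gene was chosen after the data were seen.

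Promoter sequence is a feature that the rule did not use. RefSeq windows on GRCm38.p6, from 250 bases before to 50 after the annotated start, matched 63 of the 83 members. A run of at least 8 C or T that begins with C, on the strand of the gene and within 50 bases of the start, was present in 82.5% of the 63 and in 32.0% of the 27025 genes with such a window. It was present in 89.5% of the large and 72.0% of the small subunit members. The run is shown in capitals in 30 bases around it, to let rises, falls and genes that did not pass be compared.
Rpl37a: gcattgcgtCCCTTCCTCTTCggacttggg
Rps16: aattcacacgtCCCCTCTCaggcttcgacg
Rps21: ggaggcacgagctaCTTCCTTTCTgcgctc
Rpl38: gaagcctcgttCTTTCCCCgttctcttcgg
Rpl13: cgtgacgtcaCTTCCCTTTCgcctgatttt
Rpl14: agggcgggCCCTCTCTCTTCTCgctgagcg
Rpl27a: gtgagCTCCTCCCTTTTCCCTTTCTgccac
Rps18: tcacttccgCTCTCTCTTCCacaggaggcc
Rplp2: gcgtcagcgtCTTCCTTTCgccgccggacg

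The first trio rose, the next trio fell and the last trio did not pass. They lie at chr1:72711275-72711304, chr7:28350632-28350661, chr2:180257399-180257428, chr11:114668569-114668598, chr8:123102324-123102353, chr9:120571501-120571530, chr7:109519186-109519215, chr17:33955647-33955676 and chr7:141447637-141447666, in the order printed. Rps18 is on the minus strand and the others are on the plus strand. Counted from the annotated start at 0, the runs of Rpl37a, Rps16 and Rps21 began at 24, -46 and 34. Those of Rpl38, Rpl13 and Rpl14 began at 0, -16 and -8, and those of Rpl27a, Rps18 and Rplp2 at -4, -2 and -4. A run away from the start need not be a TOP element, and that of Rps16 lay before the annotated start. Runs of this kind stood in genes of all 3 outcomes: 60.0% of the 5 rises with a window, 77.8% of 18 falls and 89.5% of 38 members that did not pass. The annotated start need not be the base at which transcription began in these cells.

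The motif CGGAAG, which ETS family factors such as GABP bind, was searched on both strands of the 300-base windows. It was present in 66.7% of the 63 members and in 18.8% of all genes with a window. Its reverse complement, CTTCCG, can overlap the end of a pyrimidine run. By outcome it was present in 80.0% of rises, 66.7% of falls and 65.8% of members that did not pass. Rpl8 and Rps20 were not among the members with a window.

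Among related groups, genes for proteins of the mitochondrial ribosome fell in larger number. Of 76 tested mitochondrial ribosomal protein genes 1 rose and 47 fell, with a median log2 fold change of -0.45, and with the median change set to 0 the counts were 2 and 27. The median of the cytosolic members was -0.06. Initiation factor genes were taken by symbols beginning with Eif and a number, which also takes regulators such as Eif4ebp1. Of 51 such genes 2 rose and 24 fell, with a median of -0.24, and one of the rises was the Y-linked Eif2s3y. With the median change set to 0 these counts were 9 and 12, with a median of -0.077, and with chromosome medians removed they were 8 and 13. Of 9 elongation and termination factor genes 1 rose, Eef1b2, and 7 fell, with a median of -0.33, or 1 and 4 with a median of -0.16 once the median change was set to 0. With chromosome medians removed the counts were 0 and 3 and the median was -0.13. Eef1b2 lost its call there, at 0.12 (limma adjusted p = 0.20). Abce1, which splits ribosomes for reuse, fell from 191 ± 25.5 to 103 ± 7.83 CPM (SD, n = 3; log2 fold change -0.88; limma adjusted p = 1.4e-07), and stood at -0.48 with chromosome medians removed. Counts and medians of these lists stand as descriptions beside the 35.2% of all tested genes called.

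**Figure D5:**
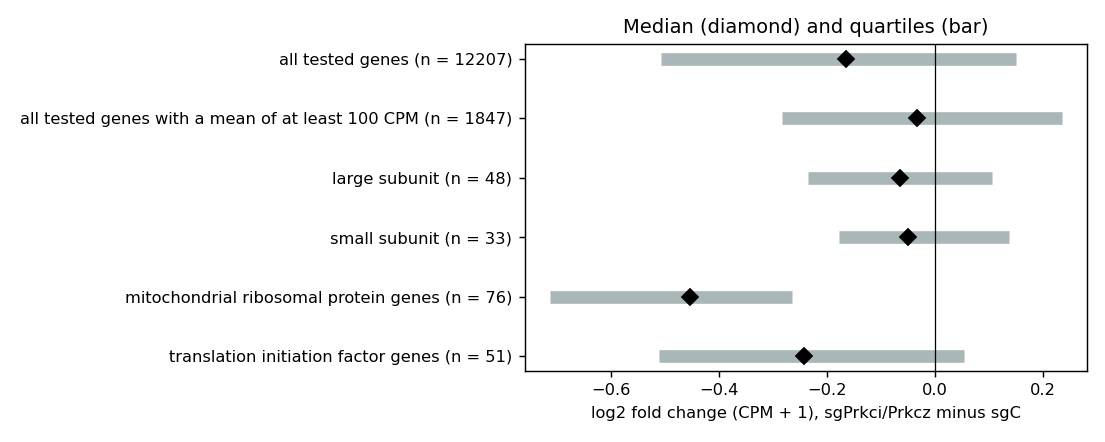
Median (diamond) and quartiles (bar) of the log2 fold change, log2(CPM + 1) scale, for all tested genes, tested genes with a mean of at least 100 CPM, large and small subunit genes, mitochondrial ribosomal protein genes and initiation factor genes. Medians are -0.17, -0.03, -0.07, -0.05, -0.45 and -0.24 in that order.

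Among ribosomal proteins whose symbols the rule does not take, Fau rose (0.25; limma adjusted p = 0.036), Rack1 on chromosome 11 fell (-0.38; limma adjusted p = 4.1e-05; 0.066 with the chromosome median removed). Fau encodes a ribosomal protein fused to a ubiquitin-like protein, and Rack1 sits at the head of the small subunit. Among 12 other genes with TOP mRNAs 1 rose and 6 fell, or 3 and 4 with the median change set to 0. Npm1, a nucleolar assembly factor on chromosome 11, fell from 1229 ± 73.3 to 678 ± 21.9 CPM (SD, n = 3), a log2 fold change of -0.86 (limma adjusted p = 8.2e-11), or -0.41 with chromosome medians removed. Tpt1 rose, by 0.47 (limma adjusted p = 0.00041).

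Chaperones that guard single ribosomal proteins before assembly gave 1 rise and 4 falls among 8 genes, and 0 rises and 2 falls with chromosome medians removed. Tsr2, in yeast and human cells the chaperone of Rps26, fell from 11.1 ± 3.26 to 3.31 ± 1.64 CPM (SD, n = 3; log2 fold change -1.53; limma adjusted p = 0.00038). Rps26 itself went from 1187, 1104 and 980.2 CPM to 859, 799 and 948, the call that ended in both settings given above. Of 19 listed genes of mTORC1 signalling and TOP mRNA control 1 rose and 6 fell, or 3 and 5 with the median change set to 0. Eif4ebp1, a translational repressor inactivated by mTORC1, fell by 1.29 on the log2 scale (limma adjusted p = 5.1e-10; -0.90 with chromosome medians removed), Larp1 by 0.84 (limma adjusted p = 1.4e-05) and the S6 kinase gene Rps6kb1 by 0.76 (limma adjusted p = 6.0e-07). Larp1 and Rps6kb1 also lie on chromosome 11, and with its median removed they stood at -0.40 and -0.32. Of 10 transcription factor genes tied to ribosomal protein genes Yy1 rose and Max fell, whereas 3 rose and 0 fell with the median change set to 0. Max lost its call there, at -0.14 (limma adjusted p = 0.30), and Myc stood at 21.7 ± 9.06 and 19.6 ± 0.43 CPM (SD, n = 3).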

How the data were processed

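The authors deposited 1 table of CPM values for 20756 genes by Ensembl identifier, and 0 other columns of values were present. Per the submitters' processing notes the genome was GRCm38. Not given in the sources used here are the aligner, the counter, its strand setting and whether the optional molecular identifiers were used. Symbols and positions came from GENCODE vM21 (GRCm38). Within each column, 100% of the deposited CPM values were multiples of the value of 1 read (relative tolerance 1e-06), so reads were recovered. edgeR on them called 3958 genes.

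The test was limma (3.58.1, R 4.3.3) on log2(CPM + 1), robust and with a trend in the variance, for genes reaching 1 CPM in 3 or more samples, with Benjamini-Hochberg adjustment over all tested genes and a threshold of 0.05. The log2(CPM + 1) scale understates the change of low genes. Since separate cultures are not stated, p-values reflect only how these samples spread, possibly for technical reasons. edgeR 4.0.16, DESeq2 1.42.0 and Python 3.11.15 served the alternatives and tables. The limma pipeline was tested on simulated data.

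Named members were the 6 called genes per subunit with the largest change and a mean of at least 10 CPM, all paralogs, the stalk and 5S genes, Rps6, Rpsa, the 3 highest and the 2 least changed per subunit. In other lists up to 3 called genes were named by adjusted p. Some genes that this rule takes are not reported here. Further genes were named after their values were seen. The members, the 19 lists and the tests were chosen with earlier results of these data known. The cut-offs for promoter runs, 3′-end sharing and the 100 CPM group were set after the data were seen.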

Additional observations from a re-analysis of the deposited data

How the results depend on the processing

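For all genes together, the members and the subunit medians, counts stayed within 1.5 times and medians within the replicate spread except as follows; counts by subunit and by list stand with their results. The count of all genes called was 2726 with DESeq2, and falls over all genes were 1180 with DESeq2, 1936 with quantile normalization, 1756 with the median change at 0 and 1579 with chromosome medians removed. Rises over all genes were 909 without limma's trend and 2125 with the median change at 0. Without the trend 7 members were called, 3 up and 4 down. Members rose and fell, respectively, in numbers of 15 and 6 with DESeq2, 17 and 12 with TMM-scaled CPM, 22 and 9 with edgeR, 23 and 7 with the median change at 0, and 22 and 4 with chromosome medians removed. In that order the medians over members were 0.094, 0.063, 0.084, 0.11 and 0.11, over large subunit genes 0.085, 0.052, 0.075, 0.10 and 0.086, and over small subunit genes 0.098, 0.067, 0.087, 0.11 and 0.13. With totals without the rRNA-like genes the medians over members and small subunit genes were -0.017 and -0.013, and with paralogs left out the small subunit median was -0.016. Rpl38 changed sign with chromosome medians removed (0.017). The causes were not tested.

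Leaving out each sample in turn gave 20 to 32 called members, 5 to 10 rises and 15 to 22 falls, with 5 rises without sgPrkci/Prkcz replicate 1. Medians ranged from -0.088 to -0.040 over members and from -0.070 to 0.045 over small subunit genes, where leaving out sgC replicate 3 (0.030) or sgPrkci/Prkcz replicate 3 (0.045) turned the sign. For the named members, 517 of 609 comparisons with an alternative stayed on the same side of the threshold, 73 lost the call, 18 gained one and 1 reversed. The 517 include sign changes in members without a call, as for Rpl36al in 11 alternatives and Rpl5 in 5. No paired analysis was possible because the sample titles share no replicate numbers between genotypes. Depth and genotype cannot be told apart by group, and 1 read is worth more CPM in every sgPrkci/Prkcz library, which limits the precision of low members. Chromosome medians and the reduced gene sets for the subunit ratio were alternatives chosen after seeing the data.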
